A study of Mus musculus with 7 samples.

Results

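The 10 genes described here encode transporters and channels that take glucose, phosphate, salt and calcium back from the urine along the nephron. They were chosen by name, with earlier results of these data known, and by a rule that uses no measured value: Slc5a2, Slc5a1, Slc34a1, Slc34a3, Slc12a1, Slc12a3, Trpv5, Scnn1a, Scnn1b and Scnn1g. All 10 were found among the 50226 gene names analysed, and all 10 belonged to the 14928 protein-coding genes that reached 1 FPKM in at least 1 tissue. FPKM is the number of fragments scaled for transcript length and library size, so levels of different genes can be set side by side on this scale. Beside kidney, the tissues were liver, cortex and skeletal muscle, and the visceral (VAT), subcutaneous (SCAT) and interscapular brown (BAT) adipose tissues. All were made from animals labelled C57BL/6 (C57BL/6N in the study's text) with the genotype wt, aged 36 weeks and on the diet labelled NCD, and the labels give neither sex nor the number of mice behind a library. RNA was depleted of rRNA and turned into directional paired-end libraries. How many fragments lie behind each FPKM is unknown. Each tissue had 1 library, so no spread between animals could be measured, every order of tissues below is a description of these 7 libraries, and no p-value was computed.

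The kidney filters plasma and then recovers most of the filtrate in a fixed order of segments. Proximal tubule cells take up glucose and phosphate with sodium, the thick ascending limb takes up sodium, potassium and chloride, the distal convoluted and connecting tubules recover further salt and calcium, and the collecting duct sets the final sodium content under aldosterone. Each of these steps depends on a carrier or channel in the membrane facing the urine, several of which are targets of diuretics or glucose-lowering drugs or are mutated in inherited salt, phosphate or glucose losing disorders.

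To show the DNA in front of these genes, the 250 bases before the annotated transcription start of 1 member per segment are printed, 5′ to 3′ on the strand of the gene, from RefSeq on GRCm38.p6. The gene bounds given with the values below come from GENCODE and span all annotated transcripts of a gene, so the RefSeq start lies inside them for Slc34a1, Slc12a1 and Slc12a3, and the stretch of Slc34a1 lies wholly within them. Capitals mark matches to a short motif on either strand. They are Slc34a1 of the proximal tubule (chr13:55399398-55399647, plus strand), Slc12a1 of the thick ascending limb (chr2:125152350-125152599, plus strand), Slc12a3 of the distal convoluted tubule (chr8:94328958-94329207, plus strand) and Scnn1g of the collecting duct (chr7:121734229-121734478, plus strand).
Slc34a1: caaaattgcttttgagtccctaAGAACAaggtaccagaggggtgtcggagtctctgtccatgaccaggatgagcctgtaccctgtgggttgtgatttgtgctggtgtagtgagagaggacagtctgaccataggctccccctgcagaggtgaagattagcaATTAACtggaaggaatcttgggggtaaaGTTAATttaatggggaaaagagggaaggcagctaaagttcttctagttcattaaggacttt
Slc12a1: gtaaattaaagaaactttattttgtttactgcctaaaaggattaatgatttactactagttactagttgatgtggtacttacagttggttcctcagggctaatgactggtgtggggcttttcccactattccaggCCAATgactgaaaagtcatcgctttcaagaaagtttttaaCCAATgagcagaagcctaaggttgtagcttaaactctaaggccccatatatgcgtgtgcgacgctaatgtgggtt
Slc12a3: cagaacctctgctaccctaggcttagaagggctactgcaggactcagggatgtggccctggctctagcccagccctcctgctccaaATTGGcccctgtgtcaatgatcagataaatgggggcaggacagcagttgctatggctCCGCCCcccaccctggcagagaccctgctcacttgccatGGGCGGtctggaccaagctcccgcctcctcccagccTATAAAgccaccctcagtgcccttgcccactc
Scnn1g: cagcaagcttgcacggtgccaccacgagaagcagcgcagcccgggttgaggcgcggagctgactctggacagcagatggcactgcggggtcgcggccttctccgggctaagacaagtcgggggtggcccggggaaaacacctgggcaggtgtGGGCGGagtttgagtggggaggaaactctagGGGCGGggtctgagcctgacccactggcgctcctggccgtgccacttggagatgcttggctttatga
The RefSeq table held a promoter for 8 of the 10 members, all but Slc5a2 and Scnn1a. The core letters of the site bound by HNF1, a transcription factor of proximal tubule and liver (GTTAAT or its reverse complement ATTAAC), stood 89 and 61 bases before the start of Slc34a1 and in no other of the 8 promoters, against 6.43% of all 32851 promoters of the same length. A TATA box (TATAAA or TTTATA) stood 32 bases before the start of Slc12a3 and 43 bases before that of Trpv5, against 12.4% of all promoters. A GC box (GGGCGG or CCGCCC) was held by Slc12a3, Scnn1b and Scnn1g (32.7% of all promoters), and a CCAAT box (CCAAT or ATTGG) by Slc34a3, Slc12a1 and Slc12a3 (33.8%). The core of the steroid receptor site (AGAACA or TGTTCT) was held by Slc5a1 and Slc34a1 (16.1%), and that of the estrogen-related receptors (AAGGTCA or TGACCTT) by 0 of the 8 (4.08%). The GC content of the 8 promoters ran from 39.6% in Slc12a1 to 65.2% in Scnn1g, beside a median of 52.4% over all promoters. These matches describe letters only, and no match says nothing about a factor.

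The carriers of the proximal tubule ranged in kidney from 13.4 FPKM for Slc34a3 to 505 for Slc34a1, the highest level of any member. Slc5a2 (chr7:128265657-128272430, plus strand) encodes SGLT2, the high-capacity glucose carrier of the early proximal tubule. Its level was 80.3 FPKM in kidney, 2.60 in liver, 1.62 in BAT, 1.35 in VAT, 1.29 in cortex, 0.966 in SCAT and 0.623 in skeletal muscle. Kidney was thus 30.9-fold above liver, the next tissue, and held 90.5% of the FPKM summed over the 7 tissues. Slc5a1 (chr5:33104219-33162870, plus strand) encodes SGLT1, the high-affinity glucose carrier of the late proximal tubule and of the intestine. It was at 0.303 FPKM in liver, 24.9 in kidney, 0.0213 in VAT and 0.0854 in cortex, and was listed at 0 in SCAT, BAT and skeletal muscle. In kidney the level of Slc5a2 was 3.22 times that of Slc5a1, and 8.18 times with the annotated-strand locus of Slc5a1, since the highest locus under that name lies on the opposite strand. Because bulk tissue was sequenced, fewer cells of a type and less RNA per cell cannot be told apart in this or any other level given here.

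Slc34a1 (chr13:55398187-55415592, plus strand) encodes NaPi-IIa, the main phosphate carrier of the mouse proximal tubule. Its level was 0.207 FPKM in liver, 505 in kidney, 0.0448 in VAT, 0.0148 in cortex and 0.125 in skeletal muscle, with SCAT and BAT listed at 0. It had rank 40 among the 14928 protein-coding genes by kidney FPKM, the highest of the members, and rank 5 by the log2 ratio of kidney over the highest other tissue. Slc34a3 (chr2:25228898-25234364, minus strand) encodes NaPi-IIc, a second phosphate carrier of the same cells. It was at 0.0125 FPKM in liver, 13.4 in kidney and 0.00593 in VAT, and cortex, SCAT, BAT and skeletal muscle were listed at 0. The phosphate carriers therefore differed 37.6-fold in kidney while both were nearly limited to it, with 99.9% of the summed FPKM of each in that library.

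Slc12a1 and Slc12a3 mark the next segments. Slc12a1 (chr2:125152505-125230002, plus strand) encodes NKCC2, the target of loop diuretics in the thick ascending limb. Its level was 0.0471 FPKM in liver, 139 in kidney, 0.00961 in VAT and 0.0110 in cortex, with SCAT, BAT and skeletal muscle listed at 0. Slc12a3 (chr8:94329201-94366214, plus strand) encodes NCC, the target of thiazides in the distal convoluted tubule. It was at 79.2 FPKM in kidney, 0.105 in SCAT, 0.0793 in liver, 0.0652 in BAT, 0.0649 in VAT, 0.0355 in skeletal muscle and 0.0131 in cortex. Both stayed at or below 0.105 FPKM in every tissue but kidney, where Slc12a1 was 1.75 times Slc12a3. Trpv5 (chr6:41652173-41680769, minus strand) encodes the calcium channel through which the distal convoluted and connecting tubules take up calcium. At 1.25 FPKM in kidney it was the lowest of the members there, with 0.0106 in liver, 0.0145 in VAT, 0.00502 in cortex and 0 listed in SCAT, BAT and skeletal muscle. Slc12a3 exceeded it 63.4-fold in kidney, and 79.4-fold with the annotated-strand locus of Trpv5, since its highest locus lies on the opposite strand. Its paralog Trpv6, which lies 15768 bp away, was at 0.262 FPKM in kidney, 2.83 in VAT and 3.40 in cortex.

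The subunits of ENaC, the amiloride-sensitive sodium channel of the collecting duct, had the lowest kidney levels after Trpv5. Scnn1a (alpha, chr6:125320659-125344943, plus strand) was at 8.83 FPKM in liver, 5.90 in kidney, 3.48 in BAT, 3.32 in skeletal muscle, 2.29 in VAT, 1.45 in SCAT and 0.294 in cortex. It was the only member whose highest level lay outside the kidney, and this order turned with FPKM summed over its loci, at 17.1 in kidney and 13.3 in liver. Scnn1b (beta, chr7:121865038-121918514, plus strand) was at 5.95 FPKM in kidney, 0.890 in BAT, 0.804 in skeletal muscle, 0.577 in liver, 0.532 in VAT, 0.494 in cortex and 0.398 in SCAT, with kidney 6.69-fold above BAT. Scnn1g (gamma, chr7:121734479-121768475, plus strand) was at 4.16 FPKM in kidney, 1.20 in BAT, 0.0965 in SCAT, 0.0585 in VAT, 0.0201 in liver and 0.00955 in cortex, and was listed at 0 in skeletal muscle. Kidney was 3.47-fold above BAT. Scnn1b and Scnn1g lie 96563 bp apart on the same strand.

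**Figure D1:**
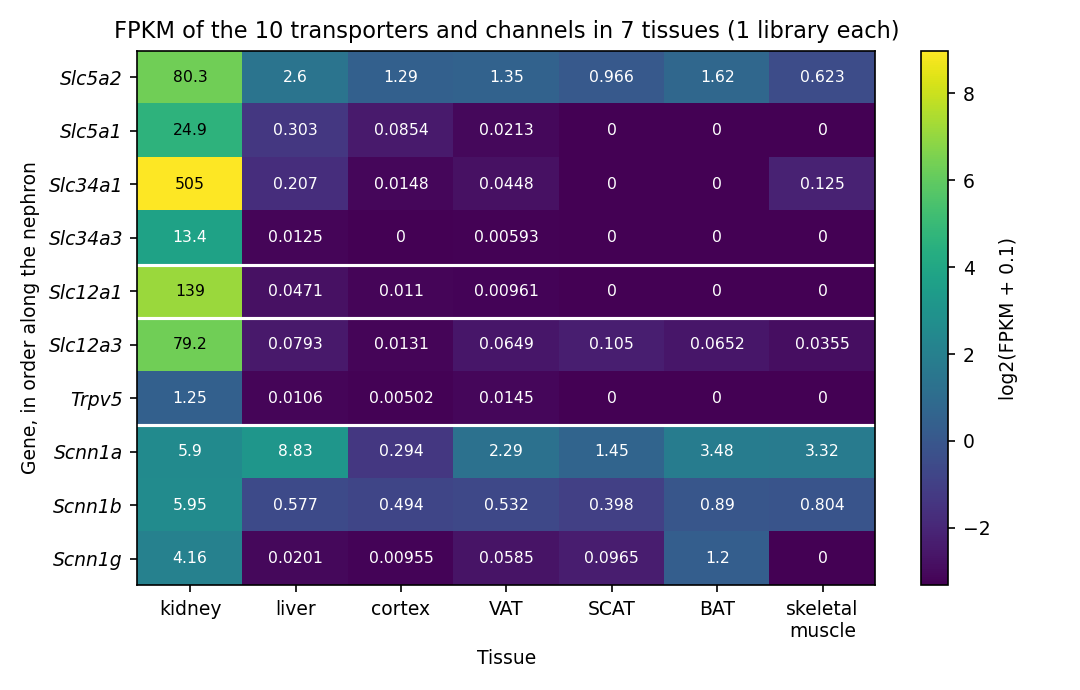
FPKM of the 10 members (rows, ordered by nephron segment, with white lines between segments) in the 7 tissue libraries (columns), coloured on a log scale, with the FPKM printed in each cell and 1 library per tissue. The kidney column runs from 1.25 for Trpv5 to 505 for Slc34a1, and Scnn1a is the only row with its highest value elsewhere, at 8.83 in liver, an order that turns with FPKM summed over loci.

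Summed over the members, kidney held 859 FPKM, against 12.7 in liver, 7.26 in BAT, 4.91 in skeletal muscle, 4.39 in VAT, 3.02 in SCAT and 2.22 in cortex. Proximal tubule carriers made up 72.6% of the kidney sum, Slc12a1 of the thick ascending limb 16.1%, Slc12a3 and Trpv5 9.36%, and the ENaC subunits of the collecting duct 1.86%. With FPKM summed over all loci of a name, the ENaC share was 4.05% and that of the proximal tubule carriers 69.9%. The median kidney level of the members was 19.2 FPKM, beside 3.61 over all expressed protein-coding genes. Outside the kidney the number of members listed at 0 was 0 in liver and VAT, 1 in cortex, and 5 each in SCAT, BAT and skeletal muscle. Over all expressed protein-coding genes the share listed at 0 was 6.44% in BAT, 5.87% in skeletal muscle, 5.10% in liver, 2.71% in SCAT, 2.29% in cortex and 0.435% in VAT.

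A gene was counted as kidney-enriched when it had at least 1 FPKM in kidney and its log2(FPKM + 0.1) there was at least 2, or 4-fold, above every other tissue. By this measure 8 of the 10 members were enriched, all but Scnn1a and Scnn1g, against 2.49% of the 14928 protein-coding genes. The member count ran from 6 to 9 over 18 settings. Kidney was the highest tissue for 9 of 10 members and for 10.6% of all the genes. On the same scale the difference between kidney and the highest other tissue was 10.69 for Slc34a1, 9.88 for Slc12a1, 8.60 for Slc12a3, 6.91 for Slc34a3, 5.96 for Slc5a1, 4.90 for Slc5a2, 3.56 for Trpv5, 2.61 for Scnn1b, 1.71 for Scnn1g and -0.57 for Scnn1a. The median was 5.43 for the members and -1.29 for all genes, and 6 members stood in the top 100 of this ranking. The added 0.1 understates the difference of genes that are low outside the kidney.

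**Figure D2:**
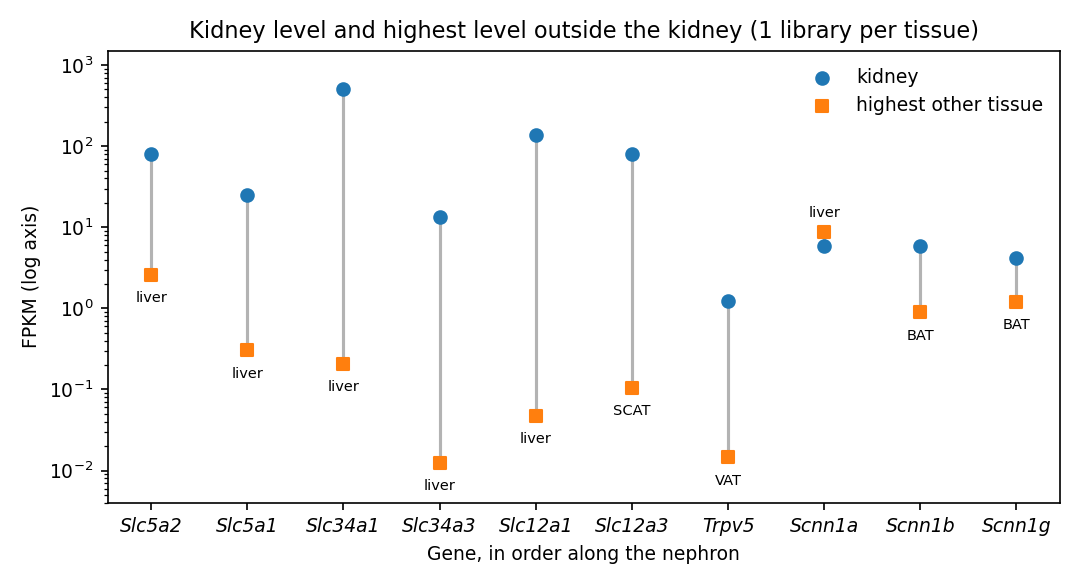
Kidney FPKM of each member beside its FPKM in the highest other tissue, on a log axis, with 1 library per tissue. The pair is farthest apart for Slc34a1 and Slc12a1, and in the reverse order for Scnn1a, at 5.90 in kidney and 8.83 in liver.

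Tissue by tissue, 9 members were at least 4-fold higher in kidney than in liver (8.19% of all genes), 9 than in VAT (8.79%), 10 than in cortex (13.9%), 9 than in SCAT (13.6%), 8 than in BAT (8.87%) and 9 than in skeletal muscle (10.4%). The median log2 difference of the members was 5.55 against liver, 6.40 against VAT, 6.47 against cortex, 6.66 against SCAT, 6.31 against BAT and 6.94 against skeletal muscle. Over all genes the same medians lay between -0.18 and 0.36. These 6 comparisons share the kidney library and are not independent of each other.

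The composition of ENaC also differed between the libraries. In kidney the alpha, beta and gamma subunits made up 36.9%, 37.2% and 26.0% of their summed FPKM. In liver the shares were 93.7%, 6.12% and 0.214%, and in BAT 62.5%, 16.0% and 21.5%. In cortex they were 36.9%, 61.9% and 1.20%, of a sum of only 0.798 FPKM, beside 16.0 in kidney. With the loci used, the alpha share there was that of kidney while gamma was lower. The shares were 79.5%, 18.5% and 2.03% in VAT, 74.6%, 20.4% and 4.95% in SCAT, and 80.5%, 19.5% and 0% in skeletal muscle. The shares in kidney and cortex depend on the choice of locus. With FPKM summed over all loci of a name, kidney held 17.1 FPKM of alpha, 8.50 of beta and 11.4 of gamma. Alpha was then highest and gamma stood above beta. In cortex the same sums were 0.583, 0.511 and 0.0448 FPKM, so that alpha stood above beta there.

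Some members share their place with other genes or have loci on both strands. Whether this bears on the low levels outside the kidney was not tested. The table held 21 loci under the names of the members, and 7 members had loci on both strands. As a percentage of the annotated strand, the highest opposite-strand locus in kidney was at 13.2 for Slc12a1, 19.6 for Slc34a3, 42.8 for Scnn1b, 87.6 for Scnn1g, 108 for Scnn1a, 125 for Trpv5 and 254 for Slc5a1. For Slc5a1 and Trpv5 the values above come from the opposite strand, since a name with several loci took its highest one. On the annotated strand Slc5a1 had 9.82 FPKM in kidney, with a log2 ratio of 5.47, and Trpv5 had 0.998, under the minimum of 1. With annotated-strand loci alone, 7 members were enriched. Slc5a2, Slc34a1 and Slc12a3 each had 1 locus.

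**Figure D3:**
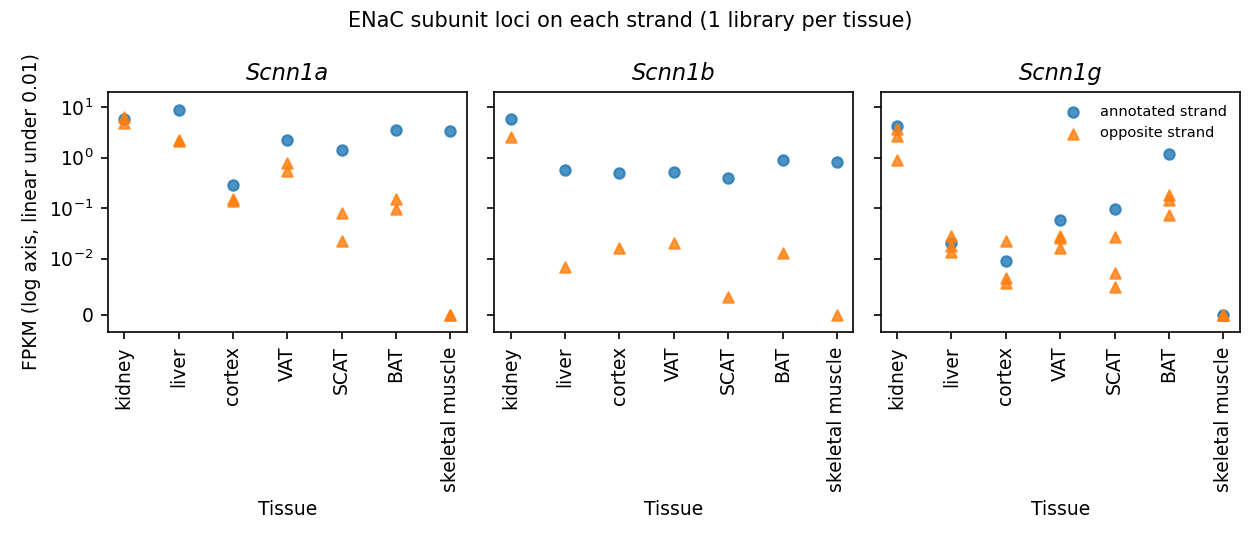
FPKM of every locus carrying the name of Scnn1a, Scnn1b or Scnn1g in the 7 tissues, on an axis that is linear below 0.01 and logarithmic above. Blue circles are loci on the annotated strand and orange triangles loci on the opposite strand, and in kidney the opposite-strand loci of Scnn1a reach 6.36 FPKM, beside 5.90 on the annotated strand.

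The coordinates printed with each member are gene bounds from GENCODE, while the table gives each locus the range of a merged bundle, which for 6 members holds further gene names on either strand. The bundle is 338535 bp long for Scnn1a, with 19 gene names, and 408558 bp for Slc34a1, with 21. Every locus of a bundle has an FPKM of its own, but the table does not show how reads were divided among them.

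The bundle of Scnn1a includes Ltbr, a receptor gene of the lymphotoxin pathway that lies 6774 bp away on the opposite strand. Ltbr was at 32.9 FPKM in liver, 18.0 in kidney, 14.9 in skeletal muscle, 13.9 in BAT, 8.37 in VAT, 6.54 in SCAT and 1.15 in cortex, and Scnn1a was 0.222 to 0.328 times Ltbr in all 7 libraries. Tnfrsf1a, a tumour necrosis factor receptor gene of the same bundle that lies 4419 bp away on the strand of Scnn1a, gave a ratio that varied more, from 0.171 to 0.838. The opposite-strand loci of Scnn1a were higher in kidney than in liver, at 6.36 against 2.18 FPKM and 4.84 against 2.27. These loci enter the summed FPKM of Scnn1a given above.

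Slc5a2 overlaps BC017158, on the opposite strand. Their ratio was 2.08 in kidney and 0.564 to 0.773 in the other 6 tissues. Scnn1b overlaps Cog7, a Golgi trafficking gene on the opposite strand. Their ratio was 0.769 in kidney and 0.113 to 0.182 elsewhere. The opposite-strand locus of Scnn1b was at 2.55 FPKM in kidney and at most 0.0201 elsewhere. Slc34a1 overlaps Pfn3, on the opposite strand, which was at 132 FPKM in kidney. What part neighbouring transcripts have in the FPKM of these members was not tested.

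**Figure D4:**
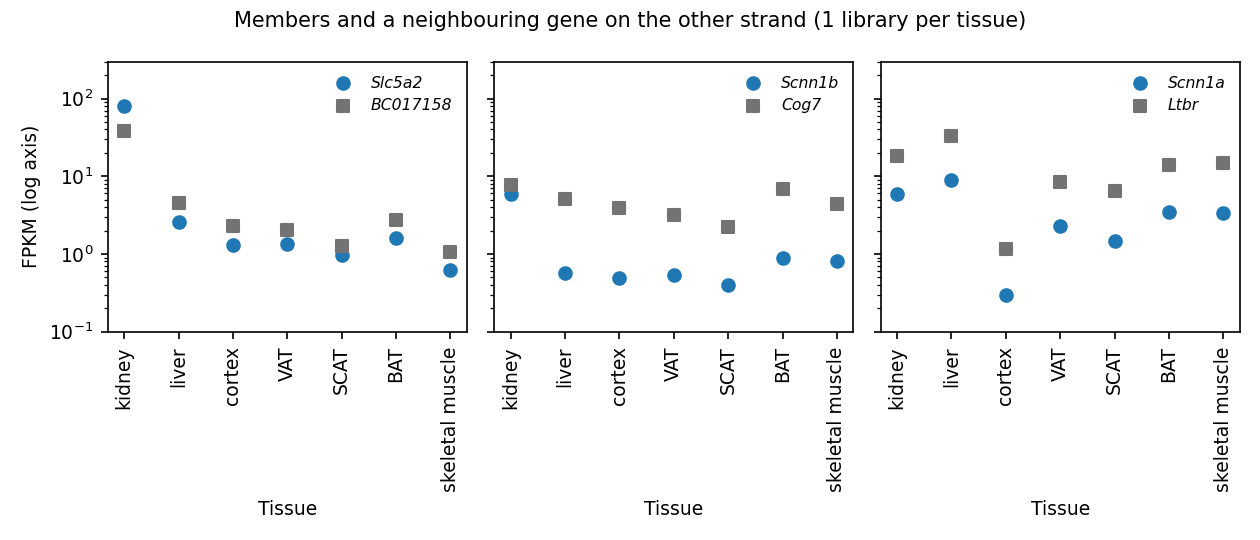
FPKM of Slc5a2, Scnn1b and Scnn1a beside the neighbouring genes BC017158, Cog7 and Ltbr in the 7 tissues, on a log axis with 1 library per tissue. Outside the kidney each member lies below its neighbour, and in kidney only Slc5a2, at 80.3 against 38.7, lies above it.

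The members belong to segments whose other genes were read from lists of 54 nephron genes, 53 of which had a value. Of these, 36 were kidney-enriched and 44 were highest in kidney. In the proximal tubule list 14 of 20 were enriched, with a median log2 ratio of 5.65. Slc22a12, the urate carrier, was highest there at 424 FPKM in kidney, followed by Lrp2, the endocytic receptor megalin, at 222. Slc2a2, the glucose exit carrier, was highest in liver at 100.3 FPKM, beside 48.9 in kidney. In the thick ascending limb list 8 of 10 were enriched, with a median of 4.66, led by Umod (uromodulin, 929.5 FPKM) and the tight junction gene Cldn10 (63.9). Its 1 gene highest elsewhere was Ptger3, at 7.74 in BAT and 4.81 in kidney.

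In the distal convoluted and connecting tubule list 6 of 10 were enriched, with a median of 3.32, led by Fxyd2 (846 FPKM), a subunit of the sodium pump, and Klk1 (490.3), a kallikrein. Its other 4 genes were highest elsewhere. They were Pvalb (skeletal muscle 4675, kidney 6.11), Calb1 (cortex 27.1, kidney 18.4), Atp2b4 (cortex 15.1, kidney 1.43) and Trpv6 (cortex 3.40, kidney 0.262). In the collecting duct list 8 of 13 were enriched, with a median of 4.07, led by the proton pump subunit Atp6v0a4 (46.3) and the water channel Aqp2 (44.1). The collecting duct genes with their highest level elsewhere were Aqp4 (cortex 31.4, kidney 20.4), Avpr2 (SCAT 8.12, kidney 1.11) and Hsd11b2 (cortex 6.51, kidney 4.49). Of 15 regulators of these carriers, 3 were enriched in kidney and 5 were highest there, with a median of -0.42. The enriched regulators were Pth1r, the parathyroid hormone receptor (118 FPKM), Kl, the FGF23 co-receptor Klotho (35.1), and Vdr, the vitamin D receptor (16.9). Wnk1, a kinase that controls NCC and NKCC2, was at 91.7 FPKM in kidney and highest in skeletal muscle at 122.9.

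**Figure D5:**
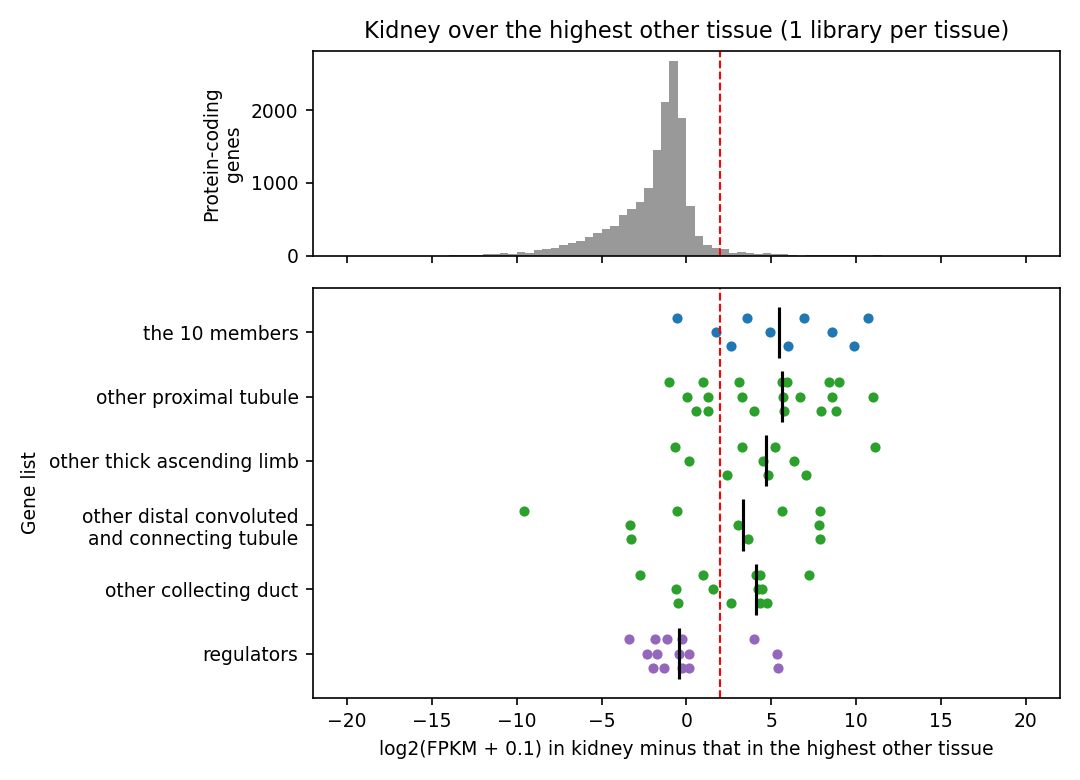
Difference in log2(FPKM + 0.1) between kidney and the highest other tissue, as a histogram of the 14928 protein-coding genes (top, number of genes) and as 1 point per gene for the members, the other genes of each nephron segment and the regulators (bottom), with black bars at the list medians and a red dashed line at 2, the level of a 4-fold difference. The medians are 5.43 for the members, between 3.32 and 5.65 for the segment lists and -0.42 for the regulators, beside -1.29 for all genes.

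To place each member, the protein-coding gene with the smallest Euclidean distance over 7 tissues of log2(FPKM + 0.1) was taken among 14898 genes. Slc34a1 lay closest to Miox, an inositol oxygenase, at a distance of 1.33, Slc12a3 to Cubn (0.646), the cobalamin receptor of the proximal tubule, and Slc12a1 to Pfn3 (0.415). Slc5a1 lay closest to Cyp2d12 (1.49), Slc34a3 to Higd1c (0.482), which had the same values as Methig1 and Mettl7a2, and Trpv5 to Vmn1r184 (0.192). Of the ENaC genes, Scnn1a lay closest to Rhobtb1 (1.15), Scnn1b to Glis2 (0.969) and Scnn1g to BC035947 (1.77), and Slc5a2 lay closest to its overlapping neighbour BC017158 (1.93). The genes nearest to Slc34a3 and Trpv5 share a single high tissue and low levels elsewhere. So do those nearest to Slc12a1, Slc12a3, Slc34a1 and Slc5a1, whose distances ran from 0.415 to 1.49.

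Several libraries also had values for genes listed as markers of other tissues. Liver markers summed to 6061 FPKM in liver, without Alb, which had no usable value there. They summed to 300.6 in VAT, of which Alb made up 252.7. In cortex the sum was 196.7, of which Ttr made up 194.7, and in kidney 51.9, of which Ttr made up 46.3. Alb, Apoa1 and Cyp7a1 were at 1.81, 0.152 and 0.00147 FPKM in cortex, and at 5.22, 0.358 and 0 in kidney. The sums in cortex and kidney thus rest mostly on 1 gene. The 4 adipocyte markers summed to 13.7 FPKM in kidney, with Ucp1 at 10.6, Plin1 at 1.64 and Adipoq at 1.34. These 3 reached 1 FPKM there, as did 11059 of all 14928 expressed protein-coding genes. VAT also held epididymis markers, of which 4 of 8 reached 1 FPKM and which summed to 2645 there, and 8 of 9 epithelial and mesothelial markers at 1 FPKM or more, beside 74.7% of all expressed protein-coding genes there. Beside them stand the 2.29 FPKM of Scnn1a and the 1.35 FPKM of Slc5a2 in VAT. In SCAT, where Scnn1a was at 1.45 FPKM, pancreatic acinar markers summed to 92.9 FPKM (4 of 4 at 1 FPKM or more) and lymphocyte markers to 89.5 (3 of 3). Of all expressed protein-coding genes, 71.4% reached 1 FPKM in SCAT. Glomerular markers with a value, 3 in all, reached 1 FPKM in kidney, beside the 11059 of 14928 genes given above. Adrenal markers reached 1 FPKM only through Star, in every tissue. In BAT, where Scnn1g was at 1.20 FPKM, Slc5a2 at 1.62 and Scnn1a at 3.48, skeletal muscle markers summed to 335 FPKM. The genes at 1 FPKM or more there were 6 of the 20 in the proximal tubule list and 1 of 10 in that of the thick ascending limb. They were 4 of 10 in that of the distal convoluted and connecting tubule, and 1 of 13 in that of the collecting duct. Of all expressed protein-coding genes, 72.0% reached 1 FPKM in BAT. In VAT the same counts were higher for every list, at 8, 2, 6 and 4. In skeletal muscle, where Scnn1a was at 3.32 FPKM, the adipocyte markers summed to 28.1 FPKM. There 4 of 4 reached 1 FPKM, beside 72.8% of all expressed protein-coding genes. The part of any such cells in the levels of the members was not tested.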

How the data were processed

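RNA-Seq of 7 tissues of C57BL/6 mice was analysed, with 1 library per tissue. The authors trimmed reads with flexbar, removed rRNA reads with Bowtie2 (2.2.9 per the submitters' notes), aligned to GRCm38 with STAR (2.6.0c), and assembled, merged and compared transcripts with Cufflinks (2.2.1), cuffmerge and cuffdiff. The deposited values are FPKM per locus, as the authors' cuffdiff gave them. The table also holds the authors' log2 fold changes, test statistics, p-values, q-values and significance calls for 21 comparisons, which were not used. Fragment counts are not part of it, which leaves the depth of the libraries unknown, and no interval could be computed.

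Of 94339 loci, the 151 with the status FAIL were left out, and 145 zeros with the status LOWDATA were set as missing, none of a member. Names sharing a locus were split, and for a name with several loci the one with the highest FPKM was used. The table has no strand column, and strand was inferred from the listing order, a pair of ascending series of loci per chromosome. Gene types and positions came from a GENCODE annotation of GRCm38, in which 91.9% of names were found. Differences were taken on log2(FPKM + 0.1). The rule was tested on simulated data with genes raised 8-fold. Promoters came from RefSeq, on GRCm38.p6.

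The members and lists were chosen with earlier results of these data known. The motifs, neighbour ratios, strand checks and settings that leave out a tissue were chosen after values were seen. Named are all members, the 2 genes of each list with the highest kidney FPKM, genes highest elsewhere where 3 or fewer, and the nearest gene of each member. Other genes were named after their values were seen. Python 3.11.15, pandas 2.3.3, NumPy 2.4.6 and matplotlib 3.10.9 were used. Alternatives covered the pseudocount, scaling, minimum FPKM, fold and choice of locus. Slc8a1, Acta1 and Podxl had no value and were not analysed here, and 1 further value is not reported here.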

Additional observations from a re-analysis of the deposited data

How the results depend on the processing

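The number of kidney-enriched members ran from 6 to 9 over 18 settings, with 6 at a pseudocount of 1 and 9 with loci summed, at a 2-fold limit or without BAT. The count over the nephron lists ran from 30 to 39, and the alpha share of ENaC in kidney from 36.9% to 46.3%. The median log2 ratio of the members was 4.07 at a pseudocount of 1 and ran from 5.43 to 6.27 when 1 other tissue was left out, with 6.27 without liver. The log2 ratio of Scnn1a turned to 0.36 with FPKM summed over loci and ran from -0.57 to 0.74 when 1 tissue was left out, with 0.74 without liver. Scnn1g passed the 4-fold limit without BAT (4.44) and with loci summed (2.76). Scnn1b (1.88) and Trpv5 (1.15) fell below it at a pseudocount of 1. Of 140 alternatives of single log2 ratios, 121 stayed within 1.5-fold, 17 moved further, 11 of them under another pseudocount, and 2 reversed. Scaling by median ratios shifted the tissues by -0.39 to 0.52 on the log2 scale, with 8 members still enriched. No paired analysis was possible because no tissue has a replicate to pair.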

Other observations

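The paralogs of the members were less limited to kidney than the members. Of 28 paralogs, 23 reached 1 FPKM in at least 1 tissue. Of these, 11 were highest in kidney and 5 were kidney-enriched, against 10.6% and 2.49% of all expressed protein-coding genes. Their median log2 ratio was -0.28, beside -1.29 for all genes. The enriched ones were the sodium-coupled carriers Slc5a8 (8.99 on the log2 scale), Slc5a12 (8.82), Slc5a9 (4.89) and Slc5a10 (3.58), and the channel Trpv4 (2.39). In 6 of the 7 tissues the paralog with the highest level is named here, and it was Slc12a7 in liver (33.2 FPKM), Slc5a10 in kidney (87.8), Slc5a11 in VAT (9.60), Slc12a5, the neuronal potassium chloride cotransporter, in cortex (31.0), and Slc12a2, the widely used sodium potassium chloride cotransporter NKCC1, in BAT (25.7) and skeletal muscle (46.7).

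Slc34a2, the phosphate carrier of lung and intestine, was at 5.83 FPKM in VAT and 2.18 in kidney, in the library that also held epididymis markers, and their part in this level was not tested. The megalin gene Lrp2 was at 4.21 FPKM in the same VAT library.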
